A study of Mus musculus with 6 samples.

Results

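The interleukin-6 family is described here through 10 genes: the ligand genes Il6, Lif, Il11 and Clcf1, the receptor genes Il6ra, Il6st, Lifr, Osmr and Il11ra1, and the feedback inhibitor gene Socs3. They were taken by gene symbol from the 55298 gene rows deposited for each library, and all 10 were found; the choice of genes was made with earlier results of these data known. The libraries come from fibroblasts sorted out of orthotopic lung tumours of C57BL/6 mice of wt genotype, over 8 weeks old. Each library holds cells of several pooled tumours rather than of one mouse. The 3 apCAFs libraries (1, 2 and 3) hold MHCII+ cells, and the 3 nonapCAFs libraries (4, 5 and 6) hold MHCII- cells. All cells shared the rest of the gate, which per the labels took FSC-A-high cells lacking CD45, CD31, EPCAM and mCherry and carrying PDPL (the labels' spelling) and PDGFRa. The sorts came from 3 independent experiments that yielded both populations, without a record in the labels of which libraries belong together. The comparison asks how the class II-positive fibroblasts differ from their class II-negative neighbours in what they could send and receive through this cytokine family.

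Cytokines of the family signal through receptor complexes built around a shared chain, gp130, the product of Il6st. Il6ra and Il11ra1 encode the alpha chains that bind interleukin-6 and interleukin-11, whereas Lifr and Osmr encode signalling chains that pair with gp130 for LIF and oncostatin M. The complexes activate JAK kinases and mainly STAT3, and STAT3 induces Socs3, whose product shuts down gp130. In tumour stroma the family is best known through interleukin-6 and LIF, which mark inflammatory fibroblasts.

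Of the 10 members, RefSeq promoters (GRCm38.p6) were matched for 9; Clcf1 was not matched. The 250 bases before the start site were searched on both strands for TTCNNNGAA (STAT), TGANTCA (AP-1), GGGA followed by any base and TTTCC (NF-kB) and TTNNGNAAT (C/EBP). Of 32851 promoters of this length, 7.02% hold the STAT letters, 6.75% the AP-1 letters, 0.356% the NF-kB letters and 10.2% the C/EBP letters. The promoters of 3 cytokine genes are shown because these genes shared a low level in nonapCAFs 6 but differed in how far the populations stood apart; capitals mark motif matches, and the sequences read 5′ to 3′ along the gene. The Il6 window lies at chr5:30012864-30013113 on the plus strand, the Lif window at chr11:4257318-4257567 on the plus strand, and the window of the second of 2 Il11 starts at chr7:4778142-4778391 on the minus strand.
Il6: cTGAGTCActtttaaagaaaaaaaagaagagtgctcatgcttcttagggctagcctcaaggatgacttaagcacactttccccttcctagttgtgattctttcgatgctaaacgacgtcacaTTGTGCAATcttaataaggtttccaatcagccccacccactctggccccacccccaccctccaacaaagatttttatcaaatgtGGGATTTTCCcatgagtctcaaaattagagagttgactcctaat
Lif: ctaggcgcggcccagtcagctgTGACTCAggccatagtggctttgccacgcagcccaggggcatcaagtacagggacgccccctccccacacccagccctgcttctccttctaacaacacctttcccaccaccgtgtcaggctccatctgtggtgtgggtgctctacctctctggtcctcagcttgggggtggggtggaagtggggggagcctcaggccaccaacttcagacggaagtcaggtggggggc
Il11: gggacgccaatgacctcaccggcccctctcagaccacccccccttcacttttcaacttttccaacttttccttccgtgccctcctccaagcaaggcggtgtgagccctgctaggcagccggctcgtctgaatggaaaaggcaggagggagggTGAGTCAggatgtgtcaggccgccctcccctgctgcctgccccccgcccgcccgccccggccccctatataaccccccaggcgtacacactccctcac
All 3 windows shown hold an AP-1 match, but the window of the other Il11 start, at chr7:4782858-4783107, holds no match to any of these motifs. The Il6 window also holds a C/EBP match, TTGTGCAAT, and an NF-kB match, GGGATTTTCC, which begins 44 bases before the start. Among the other members only Socs3 had a match in this search, TTCTTAGAA, the STAT letters, 154 bases before the start. Some windows lie within annotated exons of the same gene. Such exons cover 250 bases of the Osmr window, 247 of the first Il11ra1 window and 77 of the Socs3 window. They cover at most 13 bases of any other window. A match describes these letters and is not a tested binding site.

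Values below are the authors' normalized counts per library, rounded by them to whole numbers, and sequencing depth is unknown. Class II genes followed the sort: the summed level of H2-Aa, H2-Ab1, H2-Eb1 and Cd74 was 104629 to 193196 in apCAFs and 1397 to 2178 in nonapCAFs. Fibroblast genes were abundant in all libraries, and the sum over 7 of them was 2792063 to 4217767 in apCAFs and 1190772 to 1425779 in nonapCAFs. Of these 7, Pdpn, Col1a1 and Col1a2 were called higher, whereas Lum was lower in every apCAFs library (0.538-fold, limma adjusted p = 0.0952). Markers of other cells also differed: 7 mesothelial genes summed to 36818 to 47728 in apCAFs and 5073 to 5863 in nonapCAFs, with 6 of 7 called higher. The 9 alveolar type II genes summed to 97847, 81007 and 8969 in apCAFs 1, 2 and 3, against at most 10234 and at least 9018 in nonapCAFs. The sum over 7 epithelial genes was 10810 to 15998 in apCAFs and 7275 to 10376 in nonapCAFs. Krt8 and Krt18, with overlapping ranges, made up much of it, while Cldn3 and Krt19 were called higher (44.4-fold and 20.4-fold, limma adjusted p = 0.0169 and 0.0069). Epcam read 21 to 209 in apCAFs and 3 to 13 in nonapCAFs, and Cdh1 111 to 786 in apCAFs and 2 to 36 in nonapCAFs. The sum over 8 leukocyte genes was 1660 to 2913 in apCAFs and 945 to 1251 in nonapCAFs. Csf1r made up most of it, at 1316 to 2478 in apCAFs and 872 to 912 in nonapCAFs. Each of the remaining leukocyte genes read 192 or less in every library. The sum over 5 endothelial genes was 294 to 547 in apCAFs and 239 to 378 in nonapCAFs. No marker was at 0 in every library; Emcn, Cldn7, Adgre1 and Cd3e were at 0 in at least 1. The part of these cells in the differences below was not tested, and in sorted bulk samples fewer cells of a type and less RNA per cell cannot be told apart. apCAFs 1 and 2 resembled each other closely (SD of log2 ratio 0.238 over 17829 genes), as did nonapCAFs 4 and 5 (SD 0.246). Every other pair of libraries from the same population had an SD of 0.479 to 0.708. Without raw counts it could not be tested whether the close pairs differ beyond sampling noise, so they were kept as separate libraries and also averaged as an alternative. Where the labels give no separate cultures or animals, p-values measure only the spread between these libraries.

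Values of 7 members separated the populations without overlap, 6 higher and 1 lower in apCAFs, yet none passed the threshold in limma. Il6, Il6st, Lifr, Osmr, Il11ra1 and Socs3 were higher in every apCAFs library than in any nonapCAFs library, Il6ra was lower in every one, and Lif, Il11 and Clcf1 overlapped. Populations stood apart in this way, with apCAFs higher, for 17.1% of all tested genes and 25.5% of the 17829 genes whose mean value reached 100; with apCAFs lower, the shares were 15.4% and 25.9%. In limma on log2(value + 1), with Benjamini-Hochberg adjustment over 36443 genes, 0 of the 10 were called at an adjusted p of 0.05, against 4.4% of all tested genes, 3.91% higher and 0.486% lower. Among genes whose mean value reached 100 the share was 5.94%, with 5.87% higher and 0.0673% lower. Before adjustment 7 of the 10 lay under 0.05, against 19.3% of all tested genes and 25% of those whose mean value reached 100. The authors' deposited table, which holds DESeq2 results, has the same 7 at an adjusted p under 0.05, 6 higher and 1 lower, where 30.3% of its 19255 genes with an adjusted p pass, 20.6% higher and 9.77% lower. The median log2 fold change of the members was 0.89, against -0.04 over all tested genes.

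**Figure D1:**
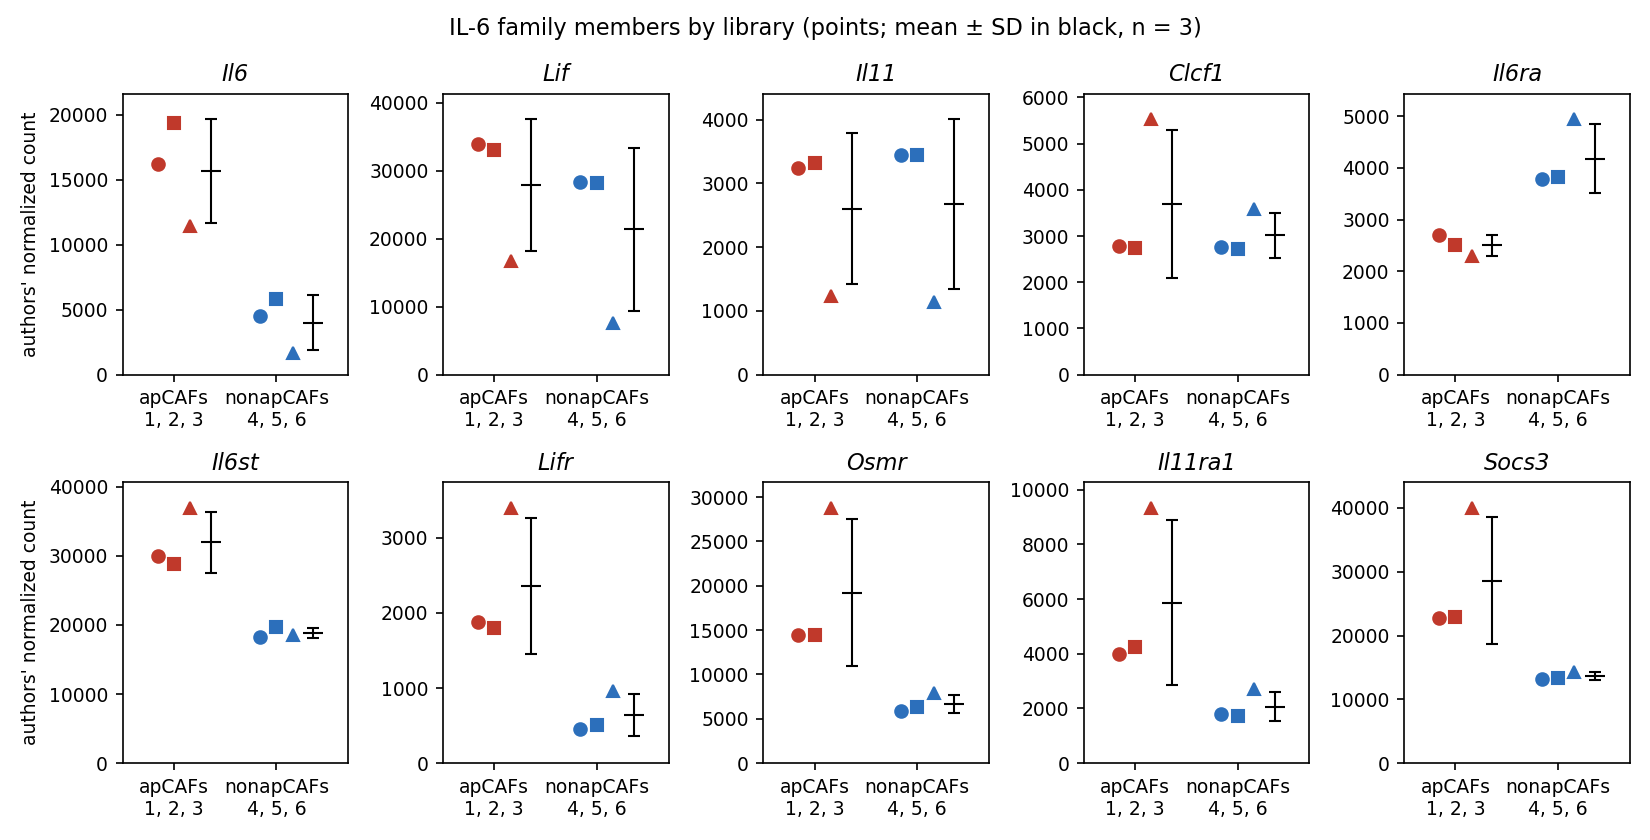
Authors' normalized counts of the 10 members (vertical axes, linear and starting at 0) in apCAFs 1, 2 and 3 (red) and nonapCAFs 4, 5 and 6 (blue), where circles, squares and triangles stand for the libraries in that order and black marks give mean ± SD (n = 3 each). The triangles, apCAFs 3 and nonapCAFs 6, lie low for Il6, Lif and Il11, and apCAFs 3 lies high for Clcf1, Lifr, Osmr, Il11ra1 and Socs3.

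Il6 had the highest fold change of the members with all libraries in, but not without nonapCAFs 6 (log2 1.58, against 2.23 for Lifr) or without apCAFs 2 (log2 1.95, against 2.06 for Lifr). This gene (ENSMUSG00000025746, mm10, chromosome 5, 30013114 to 30019981, plus strand) encodes the founding cytokine of the family. It read 16195, 19396 and 11461 in apCAFs 1, 2 and 3, and 4553, 5801 and 1656 in nonapCAFs 4, 5 and 6. The lowest apCAFs library was thus above the highest nonapCAFs library. The means were 15684 ± 3992 in apCAFs and 4003 ± 2126 in nonapCAFs (SD, n = 3 each), a fold change of 4.35 on the log2(value + 1) scale (log2 2.12, SE 0.53, 95% interval 0.78 to 3.46, limma adjusted p = 0.106). Its log2 fold change in the authors' deposited table is 1.97 (DESeq2 adjusted p = 2.37e-05). apCAFs 3 had 6.92 times the value of nonapCAFs 6. In these libraries the type II marker sums were 8969 and 9018, made up mostly of Abca3, Etv5 and Lamp3. The mesothelial sums were 47728 and 5863, and the epithelial sums 10810 and 7275. Krt19 (3805 and 124), Cldn3 (2603 and 19), Cdh1 (111 and 2) and Epcam (21 and 5) read higher in apCAFs 3. The remaining epithelial genes, Krt8, Krt18 and Cldn7, read lower there. The part of such cells in the difference was not tested. The mean of apCAFs 1 and 2 was 3.44 times that of nonapCAFs 4 and 5.

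Lif, which encodes leukemia inhibitory factor, varied more within the populations than between them. This gene (ENSMUSG00000034394, chromosome 11, 4257557 to 4272514, plus strand) read 33959, 33027 and 16726 in apCAFs 1, 2 and 3, and 28349, 28199 and 7575 in nonapCAFs 4, 5 and 6. The ranges overlapped, and apCAFs 3 and nonapCAFs 6 were the low library of their populations. The means were 27904 ± 9692 in apCAFs and 21374 ± 11951 in nonapCAFs (log2 fold change 0.54, SE 0.63, 95% interval -1.05 to 2.14, limma adjusted p = 0.609). The interval spans a fold change of 0.483 to 4.40, so a difference of the size seen for Il6 lies just inside its upper bound. Without nonapCAFs 6 the estimate was -0.09.

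Il11, whose product acts on fibroblasts through its own alpha chain, was about level between the populations and uneven within them. It (ENSMUSG00000004371, chromosome 7, 4772373 to 4782859, minus strand) read 3236, 3326 and 1232 in apCAFs 1, 2 and 3, and 3445, 3442 and 1134 in nonapCAFs 4, 5 and 6. apCAFs 3 and nonapCAFs 6 lay close to each other and well below the remaining libraries. The log2 fold change was -0.01 (SE 0.63, 95% interval -1.59 to 1.58, limma adjusted p = 1), an interval that spans a fold change of 0.332 to 2.99.

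Clcf1 encodes cardiotrophin-like cytokine factor 1, a ligand of the ciliary neurotrophic factor receptor. It (ENSMUSG00000040663, chromosome 19, 4214238 to 4223490, plus strand) read 2790, 2732 and 5531 in apCAFs 1, 2 and 3, and 2758, 2716 and 3580 in nonapCAFs 4, 5 and 6. Only apCAFs 3 stood well above the rest, and the estimate (log2 0.22, SE 0.33, 95% interval -0.62 to 1.06, limma adjusted p = 0.704) was -0.12 without it. Clcf1 shares 311 exon bases on its strand with AC109138.7, which read 1266 to 1939, so their reads may be split.

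Ratios between the cytokine genes within a library do not change when a library is scaled by a single factor. Per kilobase of annotated exon, the level of Il6 over that of Lif was 0.854, 1.05 and 1.23 in apCAFs 1, 2 and 3, and 0.288, 0.369 and 0.392 in nonapCAFs 4, 5 and 6. The Il6 to Il11 ratio was 5.75 ± 1.95 in apCAFs and 1.28 ± 0.16 in nonapCAFs (SD, n = 3 each), and the Lif to Il11 ratio was 5.42 ± 0.94 in apCAFs and 3.68 ± 0.42 in nonapCAFs. These 3 ratios did not overlap between the populations, including the one without Il6. The ratios to Clcf1 all overlapped: the level of Il6 over that of Clcf1 was 9.10, 11.1 and 3.25 in apCAFs 1, 2 and 3, and 2.59, 3.35 and 0.725 in nonapCAFs 4, 5 and 6. The ratios were chosen after the values were seen and are given without a test.

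**Figure D2:**
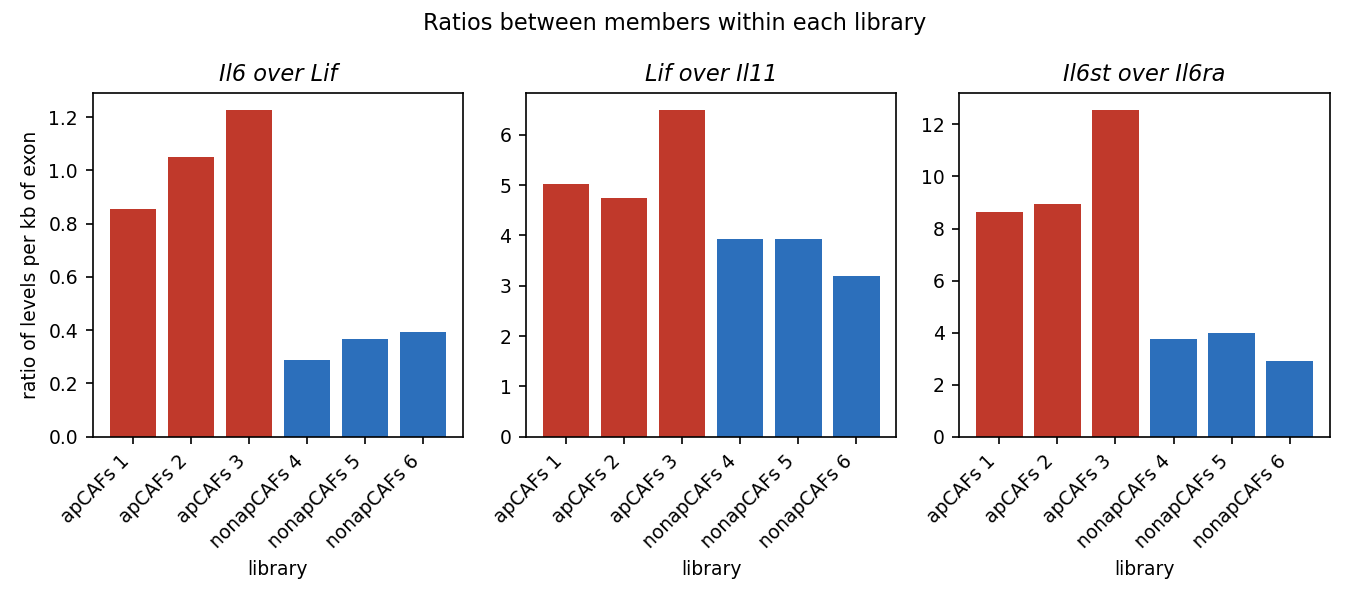
Bars give the ratio of levels per kilobase of exon for Il6 over Lif, Lif over Il11 and Il6st over Il6ra (vertical axes, starting at 0) in each library, apCAFs in red and nonapCAFs in blue. Il6 over Lif lies at 0.854 or above in apCAFs and at 0.392 or below in nonapCAFs. Il6st over Il6ra lies at 8.63 or above in apCAFs and at 4.001 or below in nonapCAFs, which follows from the opposite directions of its genes.

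The shared chain lay higher and the interleukin-6 alpha chain lower in apCAFs, neither past the threshold in limma. Il6st (ENSMUSG00000021756, chromosome 13, 112464070 to 112510086, plus strand), which encodes gp130, read 29948, 28852 and 36961 in apCAFs 1, 2 and 3, and 18260, 19636 and 18554 in nonapCAFs 4, 5 and 6. It was the steadiest of the higher members, and its difference was the smallest of these (1.69-fold, log2 0.75, SE 0.16; adjusted p = 0.0679 in limma). For Il6st the authors' deposited table has a log2 fold change of 0.76 (DESeq2 adjusted p = 1.62e-07).

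Il6ra (ENSMUSG00000027947, chromosome 3, 89864059 to 89913196, minus strand) read 2703, 2509 and 2291 in apCAFs 1, 2 and 3, and 3779, 3821 and 4946 in nonapCAFs 4, 5 and 6. It was the one member that lay lower in every apCAFs library. The means were 2501 ± 206 in apCAFs and 4182 ± 662 in nonapCAFs (SD, n = 3 each; log2 -0.73, SE 0.17, limma adjusted p = 0.0921), and the authors' deposited table gives log2 -0.74 (DESeq2 adjusted p = 3.47e-05). Per kilobase of exon, the level of Il6st over that of Il6ra was 8.63, 8.95 and 12.6 in apCAFs 1, 2 and 3. In nonapCAFs 4, 5 and 6 this ratio was 3.76, 4.001 and 2.92. Its lack of overlap follows from the opposite directions of its genes, and it too was chosen after the values were seen. Against other chains Il6st lay lower in apCAFs, also without overlap. Il6st over Lifr was 13.9 ± 2.88 in apCAFs and 31.8 ± 11.3 in nonapCAFs (SD, n = 3 each). Il6st over Osmr was 1.95 ± 0.48 in apCAFs and 3.13 ± 0.48 in nonapCAFs. Il6ra overlaps the antisense gene Gm42809 by 242 exon bases, and Gm42809 read 121 to 142 in apCAFs and 174 to 311 in nonapCAFs. Il6ra protein is also shed from the cell surface; the sheddase genes Adam10 and Adam17 had log2 fold changes of 0.11 and -0.23 and were not called (limma adjusted p = 0.641 and 0.518).

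The signalling chains for LIF and oncostatin M were both higher in apCAFs. Lifr (ENSMUSG00000054263, chromosome 15, 7090614 to 7197489, plus strand) read 1879, 1794 and 3401 in apCAFs 1, 2 and 3, and 454, 507 and 958 in nonapCAFs 4, 5 and 6, 3.73-fold apart (log2 1.90, SE 0.41, limma adjusted p = 0.0734). Osmr (ENSMUSG00000022146, chromosome 15, 6813577 to 6874969, minus strand) read 14406, 14420 and 28815 in apCAFs 1, 2 and 3, and 5838, 6286 and 7854 in nonapCAFs 4, 5 and 6, 2.75-fold apart (log2 1.46, SE 0.33, limma adjusted p = 0.0844). The highest library was apCAFs 3 for both genes, and within nonapCAFs library 6 was the highest. The genes are neighbours on opposite strands, 216 kb apart, with 0 annotated protein-coding genes between them. The authors' deposited table has both higher (log2 1.88 for Lifr and 1.53 for Osmr, DESeq2 adjusted p = 5.15e-06 and 4.05e-06). The oncostatin M gene itself, Osm, was near the bottom of the scale, at 19, 35 and 16 in apCAFs 1, 2 and 3 and 7, 10 and 9 in nonapCAFs 4, 5 and 6.

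Il11ra1, the interleukin-11 alpha chain gene (ENSMUSG00000073889, chromosome 4, 41699989 to 41769474, plus strand), followed the pattern of Osmr. It read 3997, 4262 and 9347 in apCAFs 1, 2 and 3, and 1796, 1721 and 2694 in nonapCAFs 4, 5 and 6 (2.67-fold, log2 1.42, SE 0.40, limma adjusted p = 0.141; log2 1.502 per the authors' deposited table, DESeq2 adjusted p = 0.000259). Of the 50-base words in transcripts of its copy Il11ra2, 59.3% also occur in Il11ra1, so reads may be split between the 2 genes. Il11ra2 was 2.57-fold higher (log2 1.36, limma adjusted p = 0.126), and the sum of both gave a log2 fold change of 1.41.

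Socs3 (ENSMUSG00000053113, chromosome 11, 117966079 to 117970047, minus strand), the feedback inhibitor, read 22755, 22908 and 40046 in apCAFs 1, 2 and 3, and 13186, 13363 and 14312 in nonapCAFs 4, 5 and 6. The nonapCAFs libraries lay within a narrow band, and apCAFs 3 was well above apCAFs 1 and 2. The difference was 2.02-fold (log2 1.02, SE 0.26, limma adjusted p = 0.118), and the authors' deposited table gives log2 1.07 (DESeq2 adjusted p = 0.000103). Without apCAFs 3, Socs3 passed in limma at a smaller difference (log2 0.75, adjusted p = 0.039).

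**Figure D3:**
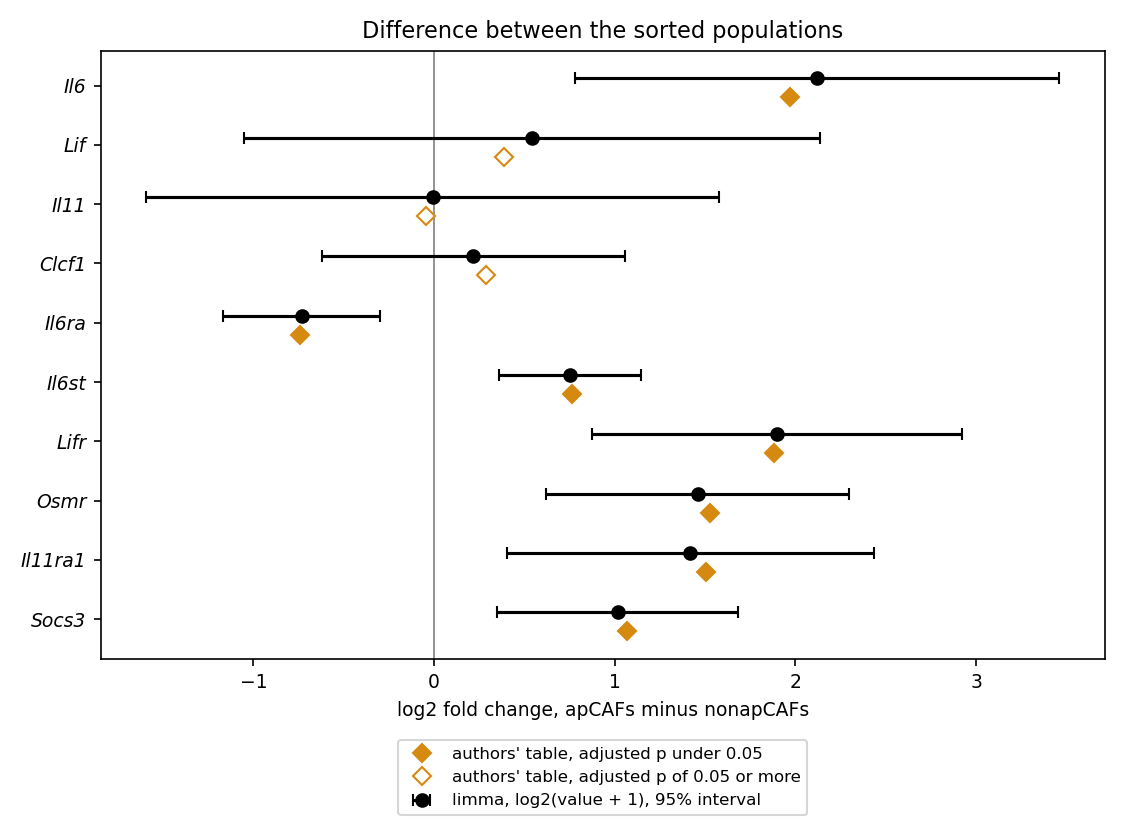
Log2 fold change of each member, apCAFs minus nonapCAFs (horizontal axis), from limma with its 95% interval, not adjusted for the number of genes (black), and from the authors' deposited table (diamonds, filled where the DESeq2 adjusted p is under 0.05). The intervals of 7 members lie clear of 0, from -0.73 for Il6ra to 2.12 for Il6, while those of Lif, Il11 and Clcf1 span 0.

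Levels can be ranked between genes once divided by exon length. In apCAFs the order per kilobase was Socs3, Il6, Lif, Il6st, Osmr, Il11ra1, Il11, Clcf1, Il6ra and Lifr. The means ran from 9882 ± 3438 for Socs3 to 219 ± 84 for Lifr (SD, n = 3), with Il6 at 6460 ± 1644 and Lif at 6415 ± 2228. Only 3 neighbours in this order had ranges that did not overlap: Lif and Il6st, Il6st and Osmr, and Clcf1 and Il6ra. In nonapCAFs the order was Lif, Socs3, Il6st, Il6, Il11, Clcf1, Osmr, Il6ra, Il11ra1 and Lifr. The means there ran from 4914 ± 2747 for Lif to 59.4 ± 25.7 for Lifr, and Il6 stood at 1649 ± 876. Non-overlapping neighbours were Socs3 and Il6st, Clcf1 and Osmr, and Il11ra1 and Lifr. Over all 6 libraries Socs3 lay at percentile 97.5 of tested genes per kilobase, Lif at 96.8, Il6 at 95.4 and Lifr at 57.3.

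Across the 6 libraries the members fell into differing profiles. Likeness was measured as the Euclidean distance between log2(value + 1) profiles centred on each gene's mean. The closest pair was Osmr and Il11ra1 (0.28), followed by Il6st and Socs3 (0.52), Osmr and Socs3 (0.61) and Il11ra1 and Socs3 (0.71). Lif and Il11 were closest to each other (0.79). apCAFs 3 over the mean of apCAFs 1 and 2 was 2.0 for Osmr, 2.26 for Il11ra1, 1.85 for Lifr and 1.75 for Socs3, but 0.644 for Il6, 0.499 for Lif and 0.376 for Il11. nonapCAFs 6 over the mean of nonapCAFs 4 and 5 was 0.320 for Il6, 0.268 for Lif and 0.329 for Il11, and 0.979 to 1.99 for the other 7 members. The low level of these 3 cytokine genes in apCAFs 3 and nonapCAFs 6 was shared by both populations.

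**Figure D4:**
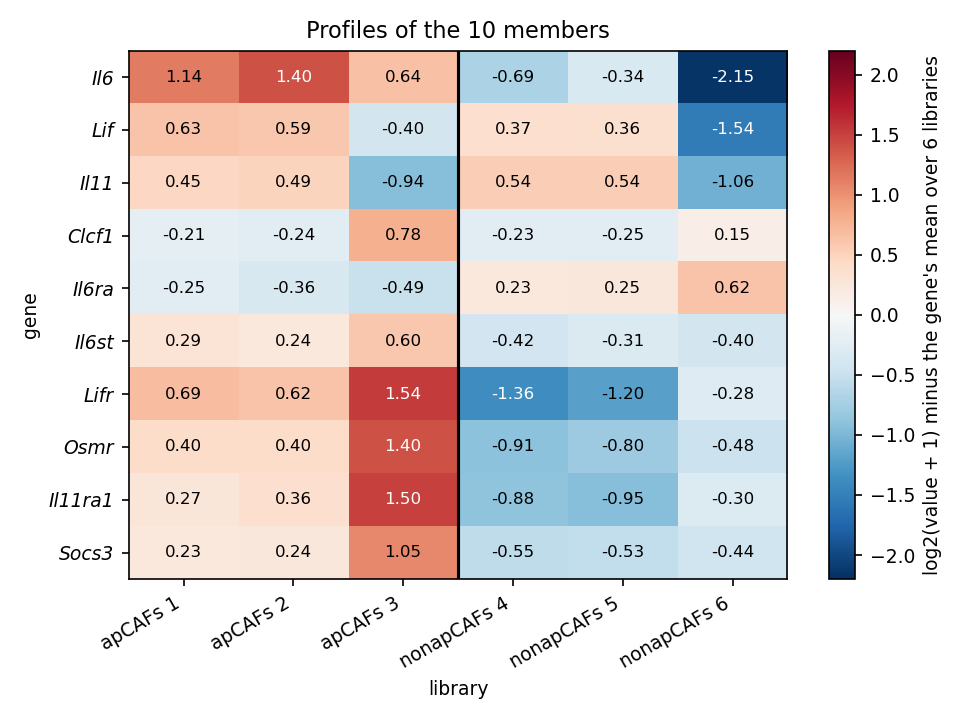
Heat map of log2(value + 1) for the 10 members (rows) in the 6 libraries (columns, apCAFs left of the black line, nonapCAFs right), each row centred on its mean; red is above and blue below the mean. Il6, Lif and Il11 have their lowest value in nonapCAFs 6, while Lifr, Osmr, Il11ra1 and Socs3 have their highest in apCAFs 3.

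Genes with profiles most like that of Il6, among 12881 named genes whose mean value reached 100, included the envoplakin gene Evpl (distance 0.50), Tnfsf8, which encodes the CD30 ligand (0.53), the noncoding RNA gene Chn1os1 (0.61) and the chemokine-binding receptor gene Ccrl2 (0.72). The compared profiles include the difference between the populations, so fold changes near that of Il6, and small p-values, follow from the choice. The log2 fold changes of these genes ran from 1.77 to 1.97. Ccrl2 was the one of them that limma called, at 1752 ± 110 in apCAFs and 473 ± 175 in nonapCAFs (SD, n = 3 each; log2 1.97, adjusted p = 0.0427). Chn1os1 shares 533 exon bases with Chn1, a protein-coding gene on the opposite strand.

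Among 57 other genes of the pathway, of which 52 had a mean value of at least 100, limma called 7 higher and 0 lower. The shares called were 3.91% higher and 0.486% lower over all tested genes. They were 5.87% and 0.0673% among genes whose mean value reached 100. In limma 25 of the 57 lay under an unadjusted p of 0.05, against 19.3% of all tested genes and 25% of those whose mean value reached 100. Most of the calls were in the list of 16 STAT3-responsive genes, of which limma called 5 higher and 0 lower. The list's median was 1.19 on the log2 scale. In limma 11 of the 16 lay under an unadjusted p of 0.05. The authors' deposited table has 11 of them higher and 0 lower, against 20.6% and 9.77% of its genes with an adjusted p. The acute-phase gene Saa3 rose to 93867, 110324 and 290387 in apCAFs 1, 2 and 3, against 3618, 4356 and 12213 in nonapCAFs 4, 5 and 6 (25.0-fold, limma adjusted p = 0.0277). Lcn2, which encodes the iron-siderophore carrier lipocalin 2, was 9.73-fold higher (limma adjusted p = 0.0454), and Hp, the haptoglobin gene, 8.52-fold (limma adjusted p = 0.036). The metalloproteinase inhibitor gene Timp1 was 3.42-fold and the kinase gene Pim1 3.34-fold higher (limma adjusted p = 0.018 and 0.0275). Pim1 overlaps the antisense gene Gm26885 by 488 exon bases. These genes also answer to other signals. Mesothelial, fibroblast, epithelial and leukocyte marker sums, the last made up mostly of Csf1r, stood higher beside them in all apCAFs libraries. The part of those cells was not tested. Myc, of the same list, had 14571 to 60600 in apCAFs and 36918 to 84279 in nonapCAFs and was not called (log2 -0.79, limma adjusted p = 0.518).

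The other lists held few limma calls. Over all tested genes limma called 3.91% higher and 0.486% lower, and 19.3% lay under an unadjusted p of 0.05. Among genes whose mean value reached 100 these shares were 5.87%, 0.0673% and 25%. Of genes with an adjusted p in the authors' deposited table, 20.6% are higher and 9.77% lower. Of 12 other ligands and receptors of the family limma called 1 higher and 0 lower, with a list median of 0.33. In limma 6 of them lay under an unadjusted p of 0.05. The authors' deposited table has 3 higher and 0 lower among the 7 with an adjusted p. Ctf1, the cardiotrophin 1 gene, had 515 ± 159 in apCAFs and 515 ± 103 in nonapCAFs. Of 10 signal relay genes 0 were called by limma, with 3 under an unadjusted p of 0.05 and 3 higher in the authors' deposited table (median 0.06). Among them, Stat3 was not called (33323 ± 7165 in apCAFs and 17262 ± 129 in nonapCAFs, limma adjusted p = 0.0667). Of 8 negative regulators 0 were called by limma, with 3 under an unadjusted p of 0.05 and, in the authors' deposited table, 3 higher and 1 lower (median 0.19); those with the highest mean values, Pias3 and Socs5, had log2 fold changes of -0.16 and 0.23. Of 11 genes that control Il6 transcription or mRNA decay, limma had 2 under an unadjusted p of 0.05. The authors' deposited table has 3 of these 11 higher and 2 lower. The 1 that limma called was Zfp36l1, an mRNA decay factor (2.69-fold higher, limma adjusted p = 0.0451). Zfp36l1 overlaps an antisense lincRNA by 1672 exon bases. The abundant decay factor gene Zfp36 and the NF-kB cofactor gene Nfkbiz were not called (log2 0.75 and 0.40, limma adjusted p = 0.347 and 0.679). Nfkbiz, like Il6, was lowest in nonapCAFs 6, at 23872. So were most of these 11 genes, among them Zfp36 (48147) and Zfp36l1 (16936).

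**Figure D5:**
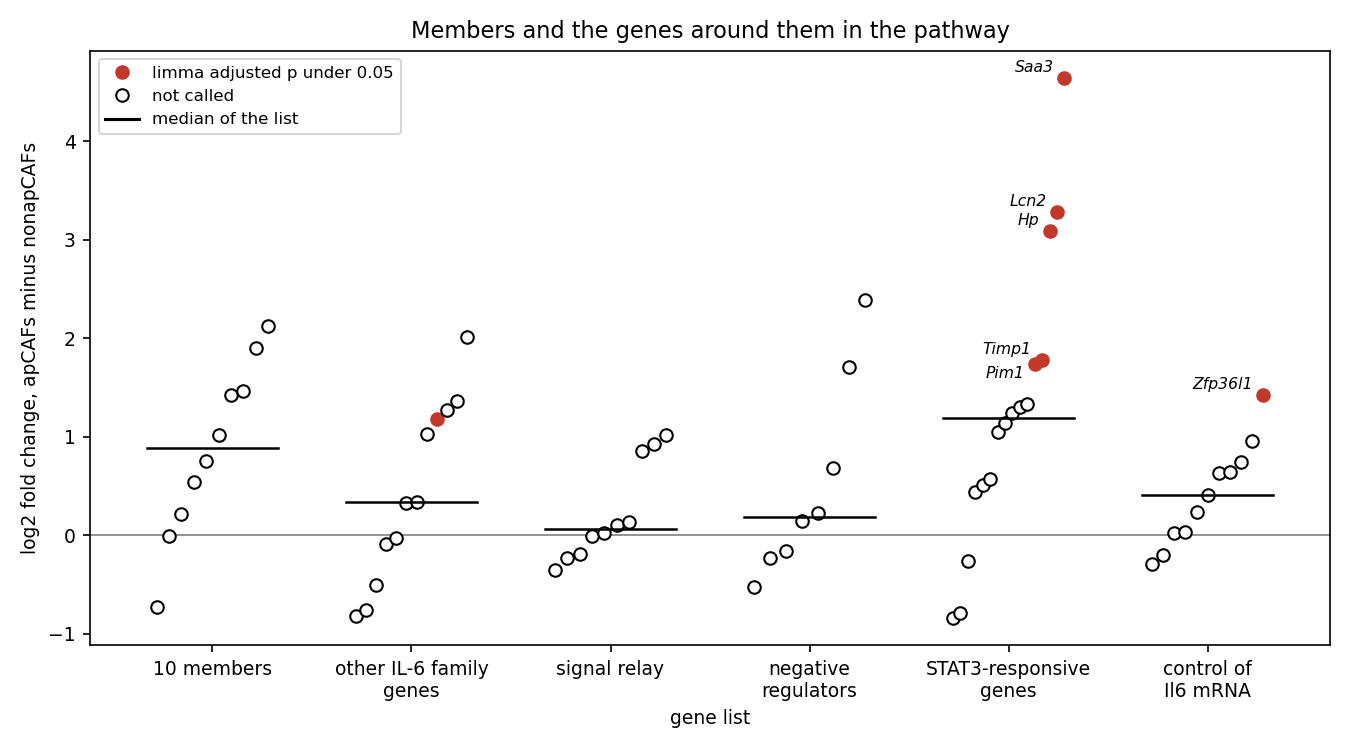
Log2 fold change, apCAFs minus nonapCAFs (vertical axis), of the 10 members and of 57 other genes in 5 pathway lists (horizontal axis); filled points are genes limma called at an adjusted p under 0.05, open points are not called, and black lines are list medians. Of the 7 filled points 5 are STAT3-responsive genes, with a list median of 1.19.

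These 7 calls, like those over all genes, depended on which libraries entered. limma called 0 of the 57 genes without apCAFs 1, without apCAFs 2, without nonapCAFs 4 or without nonapCAFs 5. It called 3 without nonapCAFs 6 and 7 without apCAFs 3. Over all tested genes it called 1602 of 36443 in the reported fit. Without apCAFs 1 it called 411 of 35777, and without apCAFs 2 310 of 35924. Without nonapCAFs 4 it called 464 of 35863, and without nonapCAFs 5 499 of 35799. Without nonapCAFs 6 it called 810 of 35644, and without apCAFs 3 1791 of 35948. With the close pairs averaged it called 0 genes of any kind (4700 genes at an unadjusted p under 0.05).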

How the data were processed

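RNA-seq values were read from the 6 per-library files. They hold, per the file headers, counts per gene after normalization by the authors, deposited as whole numbers and treated as a score rather than as raw counts. Trim Galore, Bowtie2, DESeq2 and mm10 appear, with no roles, in the submitters' processing notes on what the authors ran; how reads were counted, and whether by strand, is not given in the sources used here. A table by the authors adds DESeq2 p-values, raw and adjusted, plus a fold change as a ratio and as log2, per the file headers. All 10 members have identical coordinates in GENCODE M21 (GRCm38), whose exon unions gave lengths.

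The test was limma (3.58.1, R 4.3.3) on log2(value + 1), with population as its sole term, over the 36443 of 55298 genes above 0 in at least 1 library, with Benjamini-Hochberg adjustment over all of them, two-sided, called at 0.05. SEs are moderated by limma. The fit was tested on simulated data. Fold changes on this scale understate changes of low genes. The alternatives covered pseudocounts of 0.5 and 10, filters, scalings, a variance trend, left-out libraries and averaged close pairs.

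Members and gene lists were chosen with earlier results of these data known. Beyond the 10 members, the text names every called gene of a pathway list, or its 2 most abundant genes where fewer than 2 were called. Also named by rule are the 5 genes nearest to Il6 in profile. Osm, Il11ra2, Adam10, Adam17, Myc, Cish, Socs2, Jak2, Cntfr and the single fibroblast, epithelial, type II and leukocyte markers were named after their values were seen. Some genes that the rule takes in are not reported here.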

Additional observations from a re-analysis of the deposited data

How the results depend on the processing

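Il6, Il6ra, Il6st, Lifr, Osmr, Il11ra1 and Socs3 kept their direction under all 16 alternatives. Their log2 fold changes ranged from 1.58 to 2.48 for Il6, -1.15 to -0.61 for Il6ra, 0.33 to 0.82 for Il6st, 1.48 to 2.23 for Lifr, 1.04 to 1.63 for Osmr, 0.998 to 1.64 for Il11ra1 and 0.60 to 1.15 for Socs3. Their limma calls did depend on the setting, and the cause was not tested. Members called higher numbered 0 in the reported fit, 3 with a pseudocount of 10 and 5 when only genes with a mean of at least 100 were tested. They numbered 6 with a variance trend, and 4 with a term for apCAFs 3 and nonapCAFs 6, which was chosen after seeing the data. Leaving out 1 library gave 0 to 1. Over all tested genes, limma called 1425 of 36443 higher in the reported fit and 2309 with a pseudocount of 10. It called 2318 of 17829 higher with the mean filter, 2963 of 36443 with the variance trend and 2275 with the added term. Leaving out 1 library gave 254 to 1601 genes called higher. Il6ra was the 1 member called lower with a pseudocount of 10, with the mean filter, with median-centred values and with the variance trend. In these settings, in that order, 218, 430, 337 and 490 of all tested genes were called lower. The highest adjusted p of these 7 members over the alternatives was 0.418, for Il11ra1.

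Lif reversed to -0.0896 without nonapCAFs 6, and ranged up to 0.878 without apCAFs 3. Il11 reversed to 0.0249 with the close pairs averaged, 0.46 without apCAFs 3, and 0.26 without nonapCAFs 4 or without nonapCAFs 5, and was -0.541 without nonapCAFs 6. Clcf1 reversed to -0.20 with median-centred values and to -0.12 without apCAFs 3, and was 0.392 without apCAFs 2. None of these was called.

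Other pathway genes called higher numbered 7 in the reported fit, 15 with a pseudocount of 10, 19 with the mean filter, 1 without a filter, 3 with median-centred values, 19 with the variance trend, 0 with close pairs averaged and 12 with the added term, and 0 to 7 when 1 library was left out; 1 was called lower without a filter. Over all genes the calls were 1602 of 36443 in the reported fit, 2527 with a pseudocount of 10 and 2748 of 17829 with the mean filter. They were 436 of 55298 without a filter, 1228 of 36443 with median-centred values and 3453 with the variance trend. With close pairs averaged the calls were 0 (4700 genes at an unadjusted p under 0.05). They were 2490 with the added term, and 310 to 1791 when 1 library was left out.

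The median log2 fold change of all genes was -0.04 as reported, -0.18 with values divided by library totals, -0.19 with quantile normalization and -0.46 with median-centred values. No paired analysis was possible because the libraries are numbered 1 to 3 and 4 to 6, with no record in the labels of shared experiments. Depth is unknown, so counting error could not be set apart from the spread between 3 libraries.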

Other observations

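Among feedback regulators and receptors outside the naming rule, chosen after their values were seen, several stood as far apart as the members. Cish, which encodes a cytokine-inducible inhibitor of STAT5 signalling, read 1318, 1377 and 2184 in apCAFs 1, 2 and 3, and 381, 434 and 167 in nonapCAFs 4, 5 and 6 (log2 2.38, SE 0.44, limma adjusted p = 0.0522). Its exons overlap the antisense gene Gm17041 by 479 bases. Socs2, another inhibitor of JAK-STAT signalling, read 1897, 1962 and 3680 in apCAFs and 578, 665 and 1026 in nonapCAFs (log2 1.705, limma adjusted p = 0.0735). Jak2, which encodes a kinase used by gp130, had 11081 ± 1552 in apCAFs and 6084 ± 360 in nonapCAFs (SD, n = 3 each; log2 0.86, limma adjusted p = 0.0536). Cntfr, the alpha chain gene of the ciliary neurotrophic factor receptor, read 328, 321 and 1376 in apCAFs and 78, 89 and 312 in nonapCAFs (log2 2.01, limma adjusted p = 0.272). In all 4, picked for their values, the populations did not overlap, and none passed in limma. The populations stood apart in this way, with apCAFs higher, for 25.5% of genes whose mean value reached 100 and 17.1% of all tested genes. With apCAFs lower, the shares were 25.9% and 15.4%. In the lists they came from, 4 of 8 negative regulators, 5 of 10 signal relay genes and 5 of 12 other family genes overlapped. Without overlap but lower in apCAFs were 1, 1 and 3 genes of these lists.

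The make-up of the 4 cytokine genes, as shares of their summed level per kilobase of exon, also differed between libraries. Il6 made up 39.8%, 44.6% and 44.5% in apCAFs 1, 2 and 3, and 17.4%, 21.3% and 17.4% in nonapCAFs 4, 5 and 6. Clcf1 made up 13.7% in apCAFs 3 and 24.1% in nonapCAFs 6, against 4.01% to 4.37% in the other apCAFs and 6.35% to 6.73% in the other nonapCAFs. The shares carry no counting interval, because depth is unknown.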
